A study of Mus musculus with 3 samples.

Results

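Open chromatin was examined at 3 islet hormone genes, Ppy, Pyy and Ghrl, of 22359 protein-coding genes, in ATAC-seq peak lists from mouse islets. Ppy encodes pancreatic polypeptide, Pyy encodes peptide YY and Ghrl encodes ghrelin. The 3 genes were chosen by name, and every peak that overlapped a gene or the 50 kb on either side of it was taken. Ppy and Pyy lie next to each other on chromosome 11 and shared 1 merged window of 107.903 kb, while Ghrl lies on chromosome 6 in a window of 103.762 kb. These windows held 22 of the 60898 peaks in wild type (WT), 7 of 150354 peaks 1 week after inactivation of Taf4 (Taf4 KO) and 22 of 151725 peaks 5 weeks after it.

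Taf4 belongs to TFIID, the complex that helps RNA polymerase II start transcription. ATAC-seq reads out accessible DNA from the sites at which a transposase cuts and tags it, and cells dissociated from isolated islets of Langerhans were used. The groups were WT, Taf4 KO at 1 week and Taf4 KO at 5 weeks, with 1 library each and with the strain given as C5LBl6 in all. In the study, adult mice with floxed Taf4 alleles (lox/lox) carried an Ins1::Cre-ERT2 transgene, whose Cre recombinase is made in beta cells and acts after tamoxifen, and its Taf4+/+ controls carried the same transgene and also received tamoxifen. Inactivation was thus directed at beta cells by design, and the paper reported that Taf4 persisted in cells that make glucagon. It also reported beta cells that expressed other islet hormone genes after Taf4 loss, and some that turned into glucagon-making cells. The state of Taf4 in cells that make pancreatic polypeptide, peptide YY or ghrelin, and the origin of such cells, was not tested here. Whether the library labelled wild type came from such Cre-carrying controls, and how many mice each library held, was not given in the sources used here. With 1 library per group no difference could be set against the spread between mice, and no test was made. In these mixed cells, a change in how open a site was per cell and a change in the share of a cell type cannot be told apart. The beta cell genes Ins1, Ins2 and Iapp each had a peak at the promoter in every list.

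Pancreatic polypeptide, peptide YY and the neurotransmitter NPY are members of 1 peptide family, and in the adult islet pancreatic polypeptide marks PP (gamma) cells. Peptide YY appears early in the developing islet and is also made by gut endocrine cells. Ghrelin marks the rare epsilon cells, is far more abundant in the stomach, and needs an acyl chain, attached by the enzyme Mboat4, to activate its receptor Ghsr. Distal accessible sites of islet hormone genes are often enhancers read by endocrine transcription factors, and a peak alone does not tell which gene a site serves.

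All 3 genes lie on the minus strand of mm9. Ppy (ENSMUSG00000017316) spans positions 101961244 to 101962633 of chromosome 11, and Pyy (ENSMUSG00000017311) spans positions 101967990 to 101969146, upstream of Ppy. Ghrl (ENSMUSG00000064177) spans positions 113666113 to 113669874 of chromosome 6. The 250 bases before the outermost annotated start of each are shown to compare the core promoters of the 3 genes. No list had a peak over any of these stretches, and the Ghrl promoter peaks described below lay farther upstream. They are written 5′ to 3′ on the minus strand of mm9, from Ppy (chr11:101962634-101962883), Pyy (chr11:101969147-101969396) and Ghrl (chr6:113669875-113670124), with the letters TATAA in capitals.
Ppy: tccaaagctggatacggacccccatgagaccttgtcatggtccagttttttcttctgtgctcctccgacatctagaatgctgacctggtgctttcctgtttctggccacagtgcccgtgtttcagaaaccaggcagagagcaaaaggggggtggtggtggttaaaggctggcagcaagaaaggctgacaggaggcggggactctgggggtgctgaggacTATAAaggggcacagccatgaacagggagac
Pyy: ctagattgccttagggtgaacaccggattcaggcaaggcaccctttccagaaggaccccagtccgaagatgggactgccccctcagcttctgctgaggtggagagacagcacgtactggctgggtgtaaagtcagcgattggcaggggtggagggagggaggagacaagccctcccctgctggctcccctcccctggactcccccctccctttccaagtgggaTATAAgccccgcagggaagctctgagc
Ghrl: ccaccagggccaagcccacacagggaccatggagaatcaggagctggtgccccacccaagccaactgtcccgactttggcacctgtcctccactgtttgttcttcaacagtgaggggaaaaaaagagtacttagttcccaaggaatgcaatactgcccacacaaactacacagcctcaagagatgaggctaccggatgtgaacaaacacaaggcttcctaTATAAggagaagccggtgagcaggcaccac

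Each of the 3 upstream sequences held TATAA once, with its first letter 31 bases before the start in Ppy, 27 in Pyy and 30 in Ghrl. TATAA on the printed strand began between 25 and 35 bases before the outermost start in 3.26% of all 22359 promoters, and in 5.96% of the 8944 promoters that are poorest in CpG. This motif was looked for after the sequences had been seen, so the match is a description. The upstream sequences were 55.2% (Ppy), 61.2% (Pyy) and 52.8% (Ghrl) GC. Over the whole promoter window, from 1000 bp upstream to 100 bp downstream of a start, the ratio of observed to expected CpG was 0.166 at Ppy, 0.203 at Pyy and 0.166 at Ghrl. Ranked by this ratio in 5 equal groups of genes, Ppy and Ghrl fell in the lowest and Pyy in the next.

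Central stretches of 3 peaks are also shown, on the plus strand of mm9, because they carry the distal and the Taf4 KO results below. The first is the site with the highest −log10 q of the Ppy and Pyy window in each of the lists (chr11:101984451-101984750). The other sequences are the sites called at both times after Taf4 loss and not in WT, upstream of Pyy (chr11:101988766-101989065) and upstream of Ghrl (chr6:113670789-113671088). Capitals mark the matches to the motifs searched.
Upstream of Pyy, all lists: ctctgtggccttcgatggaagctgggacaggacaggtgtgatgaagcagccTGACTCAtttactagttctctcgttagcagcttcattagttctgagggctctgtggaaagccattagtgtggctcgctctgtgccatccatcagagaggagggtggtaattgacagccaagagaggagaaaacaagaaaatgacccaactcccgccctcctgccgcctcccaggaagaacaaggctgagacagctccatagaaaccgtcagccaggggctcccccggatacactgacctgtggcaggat
Upstream of Pyy, Taf4 KO lists: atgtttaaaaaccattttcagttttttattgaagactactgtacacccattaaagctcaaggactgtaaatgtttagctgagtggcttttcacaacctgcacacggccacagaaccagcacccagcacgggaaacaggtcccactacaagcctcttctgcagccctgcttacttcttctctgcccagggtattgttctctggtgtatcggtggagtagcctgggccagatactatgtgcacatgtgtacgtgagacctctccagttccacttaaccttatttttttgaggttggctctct
Upstream of Ghrl, Taf4 KO lists: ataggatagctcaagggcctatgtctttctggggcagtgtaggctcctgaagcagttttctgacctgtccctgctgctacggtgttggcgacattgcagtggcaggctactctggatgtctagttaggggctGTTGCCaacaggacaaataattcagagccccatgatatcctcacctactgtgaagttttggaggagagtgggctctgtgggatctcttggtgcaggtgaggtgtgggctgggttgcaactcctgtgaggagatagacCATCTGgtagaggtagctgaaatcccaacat

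Motifs were searched on both strands in these 300 bases. The AP-1 motif in the form TGANTCA matched at base 52 of the site called in all lists, and 11.8% of WT peaks held it in the central stretch of this size. In the Ghrl site the letters GTTGCC, part of the motif that Rfx factors bind, matched at base 133. An E-box in the form CAGATG matched there on the minus strand, at base 270. These letters were found in 11.0% and 25.8% of 1 week peaks over the same size, so neither match is rare. The site upstream of Pyy called in the Taf4 KO lists matched none of the motifs. Also searched were the TATA box, the letters TAATTA that homeodomain factors bind, the forkhead motif in the form TGTTTAC and the CTCF core motif, and none of these matched in the 3 sites. The matches did not overlap each other.

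Values of a peak are the caller's own, namely its fold (read pileup over local background) and its −log10 q, here called its strength, both as means along the peak. They depend on the depth of a library. The background depth recovered from the lists was 3.66 reads for WT, 6.45 reads for 1 week and 9.38 reads for 5 weeks. Peaks were therefore also placed by percentile, the share of their own list with an equal or lower strength. Of all WT peaks that were found again at 5 weeks, 89.3% had the higher percentile at 5 weeks, so a rise in percentile is the usual case between these lists.

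At the start of Ghrl a peak was present at both times after Taf4 loss and absent in WT. The 1 week peak ran from 113670534 to 113671344, 660 to 1470 bp upstream of the start, with a width of 811 bp, a fold of 3.0, a strength of 3.97 and the 79.3 percentile of its list. The 5 week peak ran from 113670376 to 113671536, 502 to 1662 bp upstream, with a width of 1161 bp, a fold of 2.66, a strength of 4.12 and the 67.9 percentile. The 1 week peak lay wholly within the 5 week peak. In WT the peak nearest to the Ghrl start lay 4808 bp away, on the far side of the gene. No list had a peak over the Ghrl gene itself, where GENCODE also places inner starts, 436 and 451 bp past the outermost one.

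By the promoter window, Ghrl was thus called in the 1 week and 5 week lists and not in WT, and Ppy and Pyy were called in none, as were 31.2% of all genes. Over all protein-coding genes the share with such a call was 59% for WT, 55.9% for 1 week and 65.6% for 5 weeks. Among genes as poor in promoter CpG as Ppy and Ghrl these shares were 9.39%, 17.4% and 20.4%, and in the CpG group of Pyy they were 29.5%, 30.8% and 38.3%. A promoter without a peak was hence the common state for genes of this kind. A call absent in WT and present later, as at Ghrl, was found for 5.46% of all genes at 1 week, for 7.74% at 5 weeks and for 3.39% at both times. Relative to the genes that lacked a WT call, these shares were 13.3%, 18.9% and 8.28%. Within the GC group of Ghrl, described below, the share that had one at both times was 2.93%, or 38 of 1295 genes. The Ghrl peaks were also present when each list was shortened to the WT number of peaks, and when depth was scaled to WT, where 2.56% and 1.94% of genes without a WT call had one at both times. They were absent at a minimum strength of 5. After the scaling the −log10 p of the 1 week peak was 4.04 and that of the 5 week peak 3.09, while the lowest of the WT list was 2.92, so that the 5 week peak passed narrowly.

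**Figure D1:**
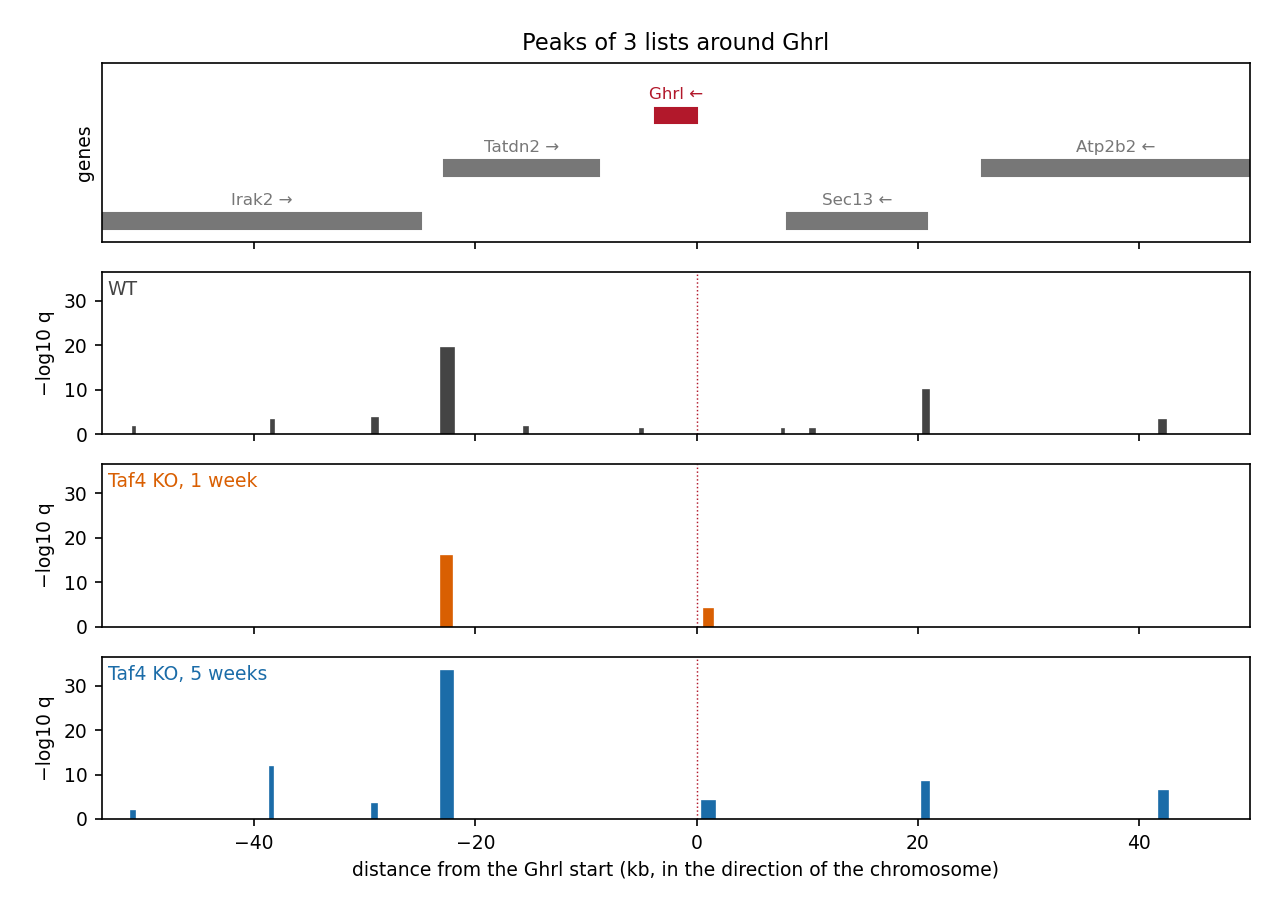
Peaks within 50 kb of Ghrl, with genes above (arrows give the strand) and the −log10 q of each peak as bar height against the distance from the Ghrl start in kb, 1 panel per list. Beside the start (dotted line) a bar of about 4 is present at 1 and 5 weeks and none in WT, and at 1 week the only other bar is the Tatdn2 promoter.

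Around Ghrl the WT list had 10 peaks, the 1 week list 2 and the 5 week list 7, covering 4652, 1750 and 4715 bp. The tallest in every list was the promoter of Tatdn2, whose strength was 19.5, 15.9 and 33.3 (WT, 1 week, 5 weeks), at the 94.7, 98.4 and 99.5 percentiles. It was the sole WT peak of this window that a 1 week peak overlapped. The promoter of Sec13, which encodes a COPII coat and nuclear pore protein, had a strength of 10.1 in WT and 8.39 at 5 weeks and no peak at 1 week. Irak2, a kinase of Toll-like receptor signalling, had weak peaks at an inner start in WT and at 5 weeks, with a strength of 1.53 and 1.77. Within Irak2, an intronic peak from 113631370 to 113631699 had a strength of 3.20 in WT, and its 5 week counterpart had 11.7. Another peak within Irak2, from 113640569 to 113641111, went from a strength of 3.65 and a fold of 3.43 in WT to 3.28 and 2.49 at 5 weeks. An intronic peak in the calcium pump gene Atp2b2 had 3.29 in WT and 6.28 at 5 weeks. The other 4 WT peaks had no counterpart in either later list and had a strength of 1.22 to 1.53, among them 1 from 113664761 to 113665066, past the end of Ghrl.

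At Ppy and Pyy the peaks closest to the genes differed between lists. In WT, 1 peak with its midpoint in a Pyy intron ran from 101968626 to 101968939, 207 to 520 bp inside the gene, with a fold of 2.17 and a strength of 1.31, at the 2.20 percentile. At 5 weeks a peak from 101968360 to 101968694, 452 to 786 bp inside and with its midpoint in a coding exon, had a fold of 2.34 and a strength of 2.71, at the 55.8 percentile. Both peaks cover the annotated start of a processed transcript of Pyy, 460 bp inside. Only starts of protein-coding transcripts counted for the promoter calls. With depth scaled to WT, the −log10 p was 3.24 for the WT peak and 2.44 for the 5 week peak. The 5 week peak was then no longer called, and it was also not called in lists of equal number. At 1 week the nearest peak to the Pyy start lay 15099 bp away. Over all protein-coding genes, 68.3% had a peak over the gene in WT, 66.8% at 1 week and 76% at 5 weeks.

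Within 2000 bp of the Ppy start, peaks were present at 5 weeks only. One lay in a Ppy intron, from 101961535 to 101961973, with a fold of 2.01, a strength of 1.70 and the 29.2 percentile. The next lay between Ppy and Pyy, 1265 to 1527 bp upstream of Ppy (101963898 to 101964160), with a fold of 2.79, a strength of 5.33 and the 73.2 percentile. A further region of the 5 week list alone lay 1185 to 1436 bp upstream of Pyy (101970331 to 101970582), with a fold of 2.15 and a strength of 1.91. With depth scaled to WT, the Ppy intron peak and the one upstream of Pyy were not called, while the peak between Ppy and Pyy was. The same held in lists of equal number. Of all 5 week peaks, 40.4% overlapped no peak of the other lists, against 3 of 22 here. The peak nearest to the Ppy start was 3479 bp away in WT, 11979 bp at 1 week and 660 bp at 5 weeks. Over all genes a peak within 2000 bp of the outermost start was found for 62%, 60.7% and 70.1%, respectively.

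A site downstream of Ppy was prominent in WT and at 5 weeks and had no peak at 1 week. It ran from 101958241 to 101959154 in WT, 3479 to 4392 bp past the Ppy start in the direction of the gene and beyond its end. Its fold was 3.66 in WT and 3.64 at 5 weeks, and its strength was 7.89 and 10.5, at the 74.1 and 86.2 percentiles. With depth scaled to WT its −log10 p was 10.3 in WT and 5.84 at 5 weeks, so that it was then higher in WT.

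**Figure D2:**
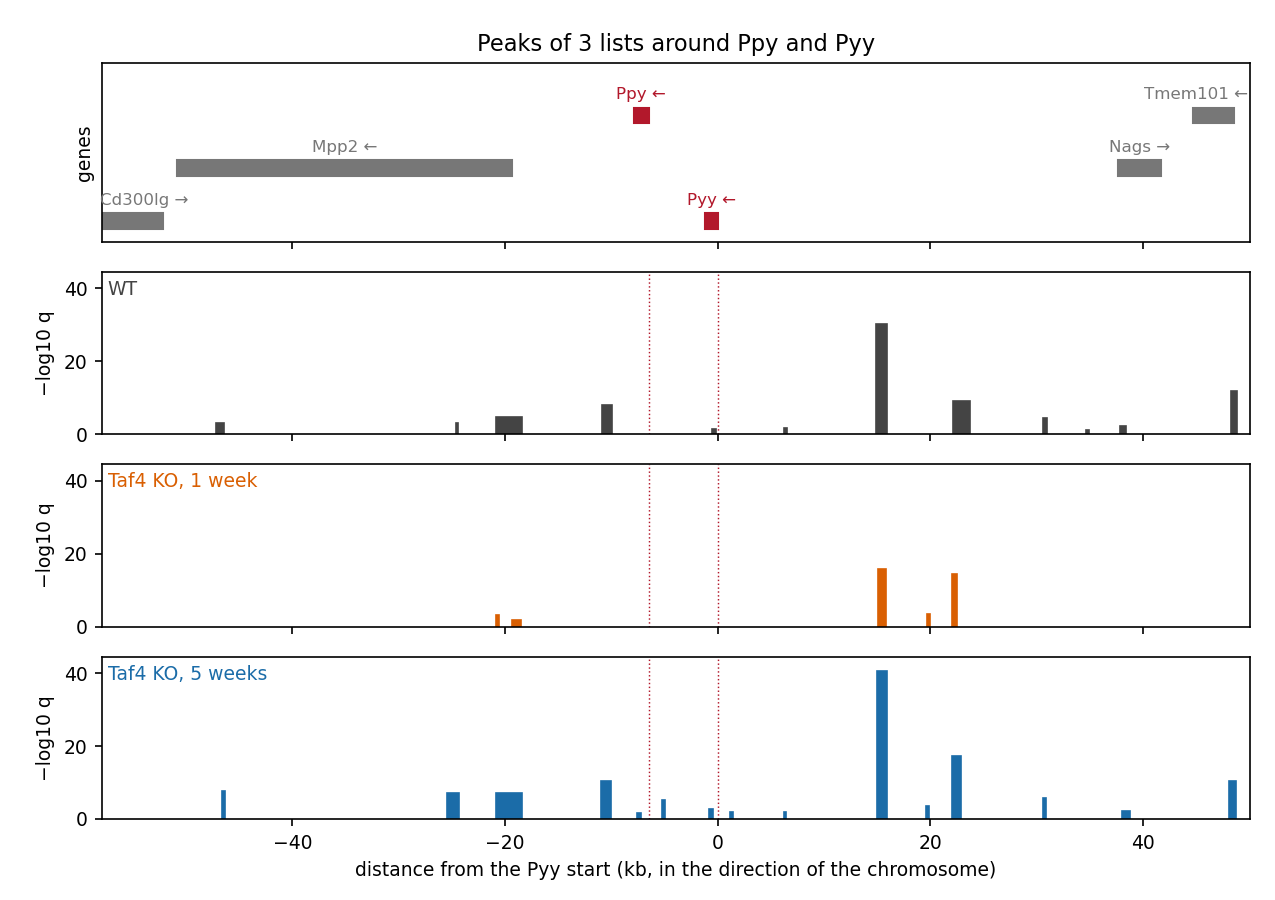
Peaks of the merged Ppy and Pyy window, with genes above (arrows give the strand) and the −log10 q of each peak as bar height against the distance from the Pyy start in kb, 1 panel per list. The 1 week panel is empty around both starts (dotted lines), and the tall bar upstream of Pyy is present in all panels, at 30.2, 15.8 and 40.5 from top to bottom.

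Upstream of Pyy lay 2 sites called in every list, among them the strongest of the window. The one whose sequence is shown first above began 14894 bp upstream of the Pyy start in WT and ran from 101984040 to 101985035. In the order WT, 1 week, 5 weeks its fold was 5.94, 5.23 and 6.07, and its strength was 30.2, 15.8 and 40.5, at the 99.2, 98.4 and 99.9 percentiles. After depth was scaled to WT, its −log10 p was 33.4, 11.3 and 18.1. Further upstream a second site was called from 101991248 to 101992868 in WT, from 101991208 to 101991636 at 1 week and from 101991142 to 101991991 at 5 weeks. Its width was 1621, 429 and 850 bp and its strength was 8.97, 14.5 and 17.2. In the Taf4 KO lists it was thus narrower and stood higher in its list, at the 97.9 and 94 percentiles against 77.5 in WT. With depth scaled to WT its −log10 p was 11.4, 10.5 and 8.57, so that it was then highest in WT. Between these sites was the peak present at both times after Taf4 loss and not in WT. It ran from 101988789 to 101989066 at 1 week, with a fold of 2.74 and a strength of 3.32, and from 101988762 to 101989043 at 5 weeks, with 2.13 and 3.55. With depth scaled to WT its −log10 p was 3.59 at 1 week and 2.77 at 5 weeks. The lowest of the WT list was 2.92, so only the 1 week call remained. In lists of equal number this peak was called at both times.

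Neighbouring genes of Ppy and Pyy gave a like mixture. The promoter of Mpp2, a membrane scaffold gene, was called in all lists, its strength being 4.70, 1.88 and 7.17, and the single broad peak of WT (2458 bp) was split in 2 at 1 week. The promoter of Tmem101 had a fold of 4.82 and a strength of 11.9 in WT, 3.51 and 10.3 at 5 weeks, and no peak at 1 week. The promoter of Nags, which encodes a mitochondrial enzyme that activates the urea cycle, was called in none, although peaks within the gene were present in WT and at 5 weeks with a strength of 2.36 and 2.21. With depth scaled to WT, the −log10 p was 6.91, 2.60 and 4.37 at the Mpp2 promoter, whose 1 week peak was then not called. At Tmem101 it was 14.4 in WT and 5.70 at 5 weeks. The 5 week peak within Nags was not called after scaling.

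Merged across lists, the peaks of both windows made 27 regions, 16 around Ppy and Pyy and 11 around Ghrl. Of these, 4 were called in all lists, 13 in WT and at 5 weeks, 5 in WT alone, 2 at 1 and 5 weeks, 3 at 5 weeks alone and 0 at 1 week alone. Of all 1 week peaks, 46.6% overlapped no peak of the other lists, against 0 of 7 here. The share over the genome of sites called at 1 and 5 weeks and not in WT was not counted. The 13 regions called in WT and at 5 weeks spanned WT percentiles from 2.20 to 84.8, so that strong as well as weak WT sites had no 1 week peak. The 5 regions of WT alone, of 22 WT peaks, were weak, at the 0.980 to 8.42 percentiles. Over the genome, 18.8% of WT peaks were in no other list, and these were also weak, with a median at the 16.9 percentile. In all 17 regions called in both WT and 5 weeks the percentile was higher at 5 weeks, and in 10 of them the fold was higher in WT. The median fold of all peaks was 3.19 in WT and 2.24 at 5 weeks. The share of all shared peaks with a higher fold in WT was not counted.

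**Figure D3:**
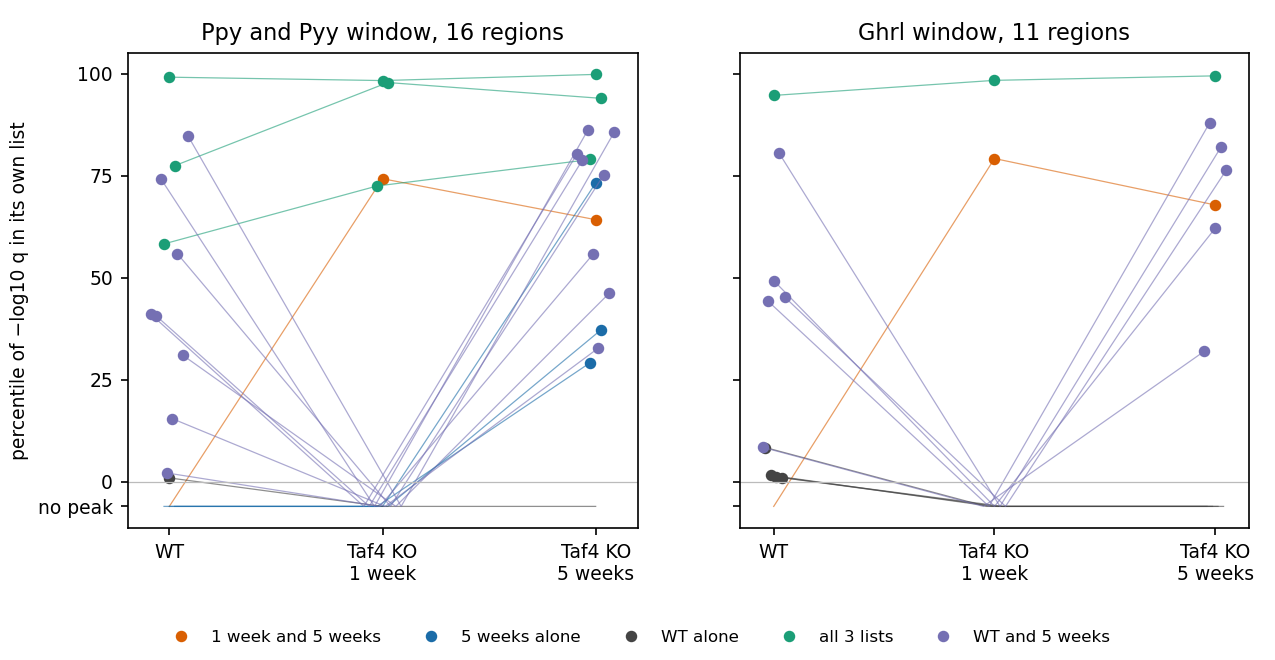
Percentile of −log10 q within its own list for each region of both windows in the 3 lists, coloured by the lists in which it was called, with regions lacking a peak drawn below 0. Of the WT regions, 13 have no peak at 1 week and a peak at 5 weeks, and 4 have one in all lists.

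Of the 22 WT peaks in the windows, 4 (18.2%, Wilson 95% interval 7.31 to 38.5) were overlapped by a 1 week peak, whereas 61.9% of all WT peaks were. At 5 weeks 17 of the 22 were overlapped (77.3%, 56.6 to 89.9), against 79.5% of all. The intervals cover the counting of peaks only. By window, 3 of the 12 WT peaks around Ppy and Pyy were overlapped at 1 week and 11 at 5 weeks, and around Ghrl 1 and 6 of 10 were. Of the 18 WT peaks without a 1 week peak, 13 were overlapped at 5 weeks. The pattern of WT and 5 weeks without 1 week was thus met by 13 of 22 peaks, against 19.3% of all WT peaks.

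The base composition of the surroundings moved with this pattern. The 1 Mb around the start was 48.3% GC for Ppy, 48.4% for Pyy and 48.2% for Ghrl, which placed the 3 genes in the most GC-rich of 5 equal groups of genes (47.4% to 54% GC). The median number of peaks per gene window in this group was 9, 4 and 9 (WT, 1 week, 5 weeks), and in the most GC-poor group it was 1, 9 and 6. WT peaks in windows of the GC-rich group were overlapped by a 1 week peak in 45.7% of cases and by a 5 week peak in 78.4%, and 32.9% of them had a 5 week and no 1 week peak. Counted per gene in the order WT, 1 week, 5 weeks, the windows held 11, 5 and 14 peaks for Ppy, 12, 5 and 15 for Pyy, and 10, 2 and 7 for Ghrl. Fewer peaks than WT at 1 week and more at 5 weeks, as for Ppy and Pyy, were found for 28.2% of all gene windows with a WT peak and for 49.6% of those of the GC-rich group. With depth scaled to WT the merged Ppy and Pyy window held 12, 4 and 9 peaks and the Ghrl window 10, 2 and 5, so that only the lower number at 1 week remained for Ppy and Pyy. All 3 gene windows had at most 50% of their WT number at 1 week, as did 25.8% of all gene windows with a WT peak and 55.3% of those of the GC-rich group. The windows of Ppy and Pyy are nearly the same stretch, so they are not separate observations. The 1 week loss of peaks was therefore common among genes in GC-rich surroundings, and the part of base composition in the values at these loci was not tested.

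Counts around the other islet hormone genes differed from gene to gene. Around Gcg, the glucagon gene of alpha cells, the WT list had 2 peaks and each Taf4 KO list 7, and around Sst, the somatostatin gene of delta cells, 2, 3 and 4. Their surroundings were 38.1% and 43.1% GC. For the beta cell genes the counts were 4, 2 and 8 around Ins2 (47.9% GC), 4, 3 and 5 around Ins1 (38.7% GC) and 8, 4 and 8 around Iapp (41.4% GC). The median gene window held 1, 9 and 6 peaks in the GC group of Ins1 and 3, 6 and 6 in that of Iapp. Like Ghrl, Gcg and Sst had a promoter peak at 1 and 5 weeks and not in WT, with a strength of 4.96 and 7.14 at Gcg and of 1.41 and 1.33 at Sst. With depth scaled to WT, Gcg and Ghrl remained called at both times and Sst at neither. With the wider promoter Gcg was called in WT too, by a peak 1318 bp from its start. The difference between these genes and Ghrl was not tested.

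**Figure D4:**
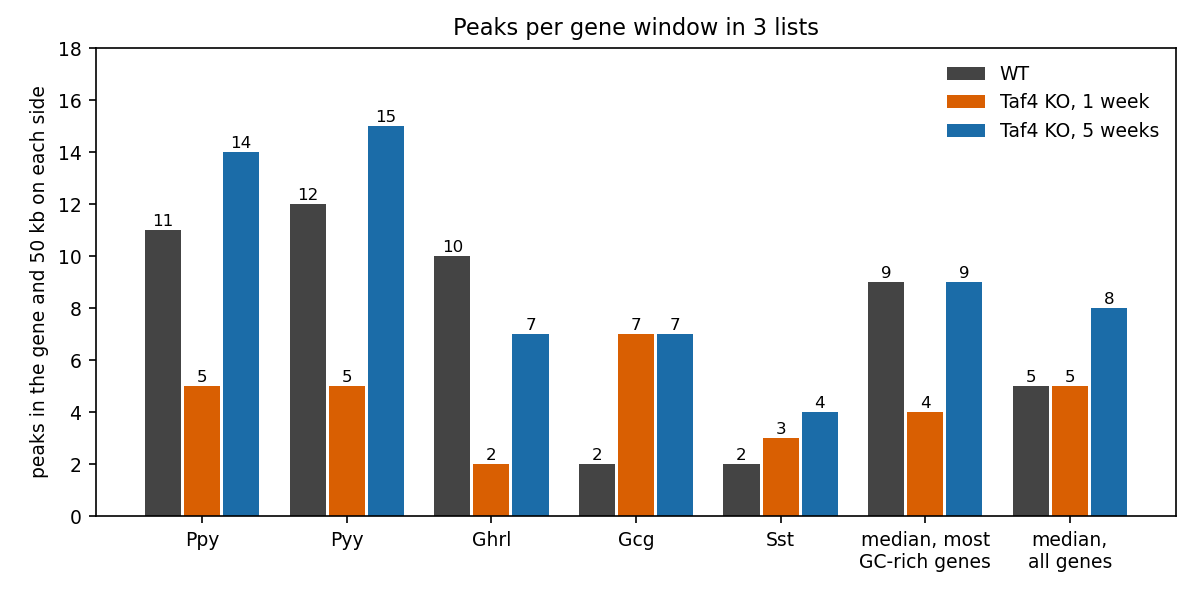
Number of peaks in the gene and 50 kb on each side in the 3 lists (bars from 0) for Ppy, Pyy, Ghrl, Gcg and Sst, and the median over the most GC-rich gene group and over all genes. The windows of Ppy, Pyy and Ghrl have their lowest bar at 1 week, with 5, 5 and 2 peaks, as does the GC-rich median with 4.

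The 50 kb limit of the windows did not split a peak. Around Ppy and Pyy the outermost WT peaks inside were the Mpp2 intronic peak at the lower coordinate, with a strength of 2.96, and the Tmem101 promoter at the higher, with 11.9. The next WT peaks outside lay 6 kb beyond the lower limit, with a strength of 1.38, and 8.55 kb beyond the higher, with 2.1. Around Ghrl the outermost WT peaks inside were that at the inner start of Irak2, with 1.53, and the Atp2b2 intronic peak, with 3.29. The next outside lay 8.43 kb beyond the lower limit, with a strength of 6.68, and 25.3 kb beyond the higher, with 3.58.

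Promoters of genes that act with these hormones were largely open in all lists. Of 46 genes in 5 lists, 37 were called in WT, 37 at 1 week and 42 at 5 weeks, by the same promoter window, against 59%, 55.9% and 65.6% of all genes. Relative to WT, 3 were added and 3 missing at 1 week, where 5.46% of all genes were added and 8.54% missing. At 5 weeks 5 were added and 0 missing, against 7.74% and 1.11% of all genes. With depth scaled to WT, 37, 31 and 34 were called, so that the 5 week number was then below that of WT. The scaled lists held 60898, 62934 and 51890 peaks, so the 5 week list was then also the shortest. The share of all genes called after scaling is not given here, for this count or for the scaled counts below.

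Among 8 ligand and receptor genes, 6 were called in WT and 7 at each later time. Npy5r, a receptor of NPY and peptide YY, was the one added, with a strength of 3.57 at 1 week and 2.62 at 5 weeks. With depth scaled to WT it was called at 1 week only, and 6, 5 and 2 of the 8 genes were called (WT, 1 week, 5 weeks). In lists of equal number the counts were 6, 5 and 6. The ghrelin receptor Ghsr was called throughout, with 3.79 in WT, 3.58 at 1 week and 6.12 at 5 weeks. Npy2r, a receptor that binds peptide YY, had 4.27, 2.36 and 3.54, and Mrap2, an accessory protein of Ghsr, had 3.65, 9.32 and 7.88. Npy6r was called in no list.

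Among 8 genes that process or modify peptide hormones, 7 were called in WT, 6 at 1 week and 7 at 5 weeks. Dpp4, a protease that trims peptide YY, had a strength of 10.4 in WT and 14.5 at 5 weeks and no promoter peak at 1 week, when a peak lay 103 bp from its start, outside the promoter window. Cpe and Pam, which finish the C-terminal ends of peptide hormones, were called in all lists, with 24.0, 25.8 and 24.6 at Cpe and 20.6, 16.4 and 20.2 at Pam. Scg5, a chaperone of a prohormone convertase, had 16.5, 7.28 and 14.7. Mboat4, the enzyme that acylates ghrelin, was called in none.

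Of 14 transcription factors of islet endocrine cells, 11 were called in WT, 11 at 1 week and 13 at 5 weeks. Nkx2-2, a factor of beta cell identity whose loss in development favours ghrelin cells, was called at 5 weeks only, with a strength of 5.12, and Fev likewise with 2.32. With depth scaled to WT, 11, 8 and 11 were called, and the Nkx2-2 call remained while the Fev call did not. With the wider promoter Fev was called in WT too, where the nearest peak lay 518 bp from its start. Isl1 had 20.3 in WT, 8.27 at 1 week and 16.3 at 5 weeks, Pax6 had 19.9, 11.7 and 25.1, and Pdx1 had 10.3, 10.3 and 9.77. Pax4 was called in none. Of 11 further genes of PP or epsilon cells, 10 were called in WT, 8 at 1 week and 10 at 5 weeks. The genes missing at 1 week were Aqp3, an aquaporin, with 2.85 in WT and 3.95 at 5 weeks, and Cartpt, which encodes the CART peptide, with 2.50 and 6.90. Id4 had 11.0, 5.80 and 13.7, Frzb had 9.64, 3.59 and 8.58, and Slitrk6 had 9.11, 15.6 and 20.5, while Anxa13 was called in none. Of 5 other islet hormone genes, 3 were called in WT and 5 at each later time, Gcg and Sst being the ones added, and Ins1 had 25.3 in WT and Iapp 6.80 and Ins2 5.48.

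Markers of other cells in islet preparations were called more often in the Taf4 KO lists, as Ghrl was. Of 25 such markers, 4 were called in WT, 8 at 1 week and 12 at 5 weeks, against 59%, 55.9% and 65.6% of all genes. Of the markers without a WT call, 5 were called at 1 week and 8 at 5 weeks, where 13.3% and 18.9% of all genes without a WT call were. Endothelial markers accounted for 1, 3 and 4 of 5, stellate and fibroblast markers for 0, 1 and 3 of 5, duct markers for 3, 3 and 4 of 5, acinar markers for 0, 0 and 1 of 5 and immune markers for 0, 1 and 0 of 5. In lists of equal number, where Ghrl remained called at both times, 4, 3 and 4 of the 25 were called. The part of such cells in the calls at Ghrl was not tested.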

How the data were processed

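Peak lists of 3 ATAC-seq libraries were analysed, 1 per group by the genotype and time labels. Per the study's methods and the submitters' processing notes, bcl2fastq 2.17.1.14, Bowtie 1.0.0 (mm9, unique alignments) and MACS2 2.1.1 (broad peaks) were used. Caller settings, a control, duplicate removal and a shift to the insertion site were not given in the sources used here. The deposited values are a ratio (fold over background), a −log10 p and a −log10 q, and a whole-number score that the authors' caller derives from the −log10 q and that was not used.

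The 2 mitochondrial peaks per list were left out, and GENCODE for NCBIM37 (mm9) was used. A promoter peak overlapped the 1000 bp before or the 100 bp after any protein-coding start, and sharing needed 1 bp of overlap. Depth was recovered by solving the Poisson background behind each fold and p and taking the first percentile, assuming equal read extension. The solving was tested on values simulated from the same formula, which checks its arithmetic only. Deposited values are means along a peak, so the recovered depths and the scaling that rests on them are approximate. Alternatives were a −log10 q of at least 3 or 5, lists of equal number, scaling to the WT background, wider promoters, flanks of 25 or 100 kb and a reciprocal overlap of 50%.

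The members, gene lists and alternatives were chosen with earlier results of these data known. Named genes were the members, genes with a start in the windows, list genes with differing calls and, of those called throughout, up to 3 per list with the highest WT −log10 q. Atp2b2, the counts around Ins1, Ins2 and Iapp and list genes called nowhere were named after their values were seen. Python 3.11.15, pandas 2.3.3, numpy 2.4.6 and scipy 1.17.1 were used.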

Additional observations from a re-analysis of the deposited data

Results flagged for a closer look

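The number of peaks in the Ppy and Pyy window moved in opposite directions at the 2 times after Taf4 loss, with 12 in WT, 5 at 1 week and 15 at 5 weeks. This difference was not tested, since each group is 1 library and both comparisons share the WT library. Fewer peaks at 1 week and more at 5 weeks than in WT were found for 28.2% of all gene windows with a WT peak and for 49.6% of those in the most GC-rich group. In lists of equal number the window held 12, 4 and 10 peaks, and after scaling to the WT background 12, 4 and 9, so that the higher 5 week number did not hold there and the lower 1 week number did.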

How the results depend on the processing

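Of 58 alternative values, 18 moved, by over 1.5 times for a count or out of the Wilson interval of the reported value for a share, and 40 did not. In no setting did the windows hold more peaks at 1 week than in WT or at 5 weeks. Peaks below are filtered by strength, their −log10 q. The number of the 3 genes with a promoter peak became 0 at 1 week and 0 at 5 weeks with a minimum strength of 5, and 1 in WT (Pyy) and 3 at 5 weeks with the wider promoter. The 22 peaks of WT in both windows became 11 and 6 with a minimum strength of 3 and 5, and 13 with flanks of 25 kb. The 7 peaks at 1 week became 3 with a minimum strength of 5 and 13 with flanks of 100 kb. The 22 peaks at 5 weeks became 13 with a minimum strength of 5, 14 after scaling, 14 with 25 kb and 35 with 100 kb. The share of WT peaks overlapped at 1 week became 50% with a minimum strength of 5, on 6 WT peaks, against 63.2% of all WT peaks, so that the gap to all peaks was smaller there. It was 36.4% against 70.7% with a minimum of 3 and 9.09% against 44.9% by reciprocal overlap, both within the wide interval. At 5 weeks the share became 100% with a minimum of 3 or 5, against 92.1% and 93.3%, and 54.5% after scaling, against 65.4%. Genes of the 5 lists with a promoter peak numbered 19 at 1 week with a minimum strength of 5. The cause of these shifts was not tested, apart from the fewer peaks that a stricter list or narrower flank holds and the more peaks or calls of wider ones. No paired analysis was possible because each group has 1 library, and leaving out a replicate could not be done for the same reason. Weak peaks near the calling limit, as inside Pyy in WT, are the least certain at this depth.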
